A study of Mus musculus with 6 samples.

Results

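Hox genes encode homeodomain transcription factors and were examined as a group in mouse thoracic aorta, with and without disruption of TGF-β receptors in smooth muscle cells (SMCs). The group held the 39 protein-coding genes of the count table, of 52636 genes in all, whose symbol is Hox followed by a cluster letter from a to d and a paralogue number from 1 to 13. They comprised 11 genes of the Hoxa cluster, 10 of Hoxb, 9 of Hoxc and 9 of Hoxd. The WT group was 4 libraries from untreated C57BL/6J mice, and the KO group was 2 libraries from mice with floxed Tgfbr1 and Tgfbr2 on both chromosomes (Tgfbr1f/f, Tgfbr2f/f) that also carried Myh11-CreERT2 and mT/mG, a fluorescent Cre reporter (Tgfbr1/2iSMCKO). KO mice were given tamoxifen at 2 mg per day by intraperitoneal injection for 5 days, beginning at 11 weeks, and all aortas were taken at 12 weeks from male mice. The Cre recombinase is driven by the promoter of Myh11, an SMC myosin, whereas the RNA came from whole aorta and so also from cells that keep both receptors. The WT mice lacked the floxed alleles, the Cre transgene, the mT/mG reporter and tamoxifen, so the effects of these factors cannot be told apart here. Each group had as many mice as libraries, and p-values measure the spread between these few animals.

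In the embryo, Hox genes are switched on in the order in which they lie along their chromosome, so that low paralogue numbers mark the head and neck and high numbers mark the tail, limb tips and genital tract. Genes with the same number in different clusters are paralogues and bind similar sites, usually together with the TALE cofactors of the Pbx, Meis and Pknox families. Adult mesenchymal cells and vascular SMCs keep part of this code, and the segments of the aorta, whose SMCs derive from neural crest, second heart field or somites, are known to differ in it. The Hoxa genes lie on chromosome 6, the Hoxb genes on chromosome 11, the Hoxc genes on chromosome 15 and the Hoxd genes on chromosome 2 of GRCm38.

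To show what the regulatory sequence of these genes looks like, the 250 bases before the annotated start are given for a pair of genes with a high level in WT aorta and a pair with no count in any library. Hoxa5 acts in the neck and upper chest, including the lung, and Hoxb4 is known for its action in blood stem cells. Hoxa13 patterns the limb tips and genital tract, and Hoxd1 acts in pain-sensing neurons. The windows are RefSeq promoter sequence of GRCm38.p6, written 5′ to 3′ on the strand of the gene, with each CpG dinucleotide (CG) in capitals. That of Hoxa5 is chr6:52204588-52204837 on the minus strand, within introns of Hoxa3. That of Hoxb4 is chr11:96318017-96318266 on the plus strand, in no annotated gene. That of Hoxa13 is chr6:52260881-52261130 on the minus strand, in no annotated gene. That of Hoxd1 is chr2:74762730-74762979 on the plus strand and overlaps an exon of Haglr, a noncoding RNA of the opposite strand.
Hoxa5: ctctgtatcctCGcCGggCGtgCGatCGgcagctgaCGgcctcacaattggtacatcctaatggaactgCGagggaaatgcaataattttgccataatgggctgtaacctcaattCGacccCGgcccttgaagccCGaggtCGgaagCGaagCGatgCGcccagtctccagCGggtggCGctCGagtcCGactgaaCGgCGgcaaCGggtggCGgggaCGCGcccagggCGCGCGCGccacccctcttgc
Hoxb4: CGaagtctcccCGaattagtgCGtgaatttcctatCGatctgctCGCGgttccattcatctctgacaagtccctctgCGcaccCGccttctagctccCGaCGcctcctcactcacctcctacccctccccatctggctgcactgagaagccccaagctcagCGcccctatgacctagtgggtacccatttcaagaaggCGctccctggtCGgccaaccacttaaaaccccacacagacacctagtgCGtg
Hoxa13: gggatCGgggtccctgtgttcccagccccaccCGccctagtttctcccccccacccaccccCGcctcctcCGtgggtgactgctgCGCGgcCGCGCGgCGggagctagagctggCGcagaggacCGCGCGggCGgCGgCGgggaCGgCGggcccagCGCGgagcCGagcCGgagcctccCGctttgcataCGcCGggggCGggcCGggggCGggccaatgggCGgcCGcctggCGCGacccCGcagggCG
Hoxd1: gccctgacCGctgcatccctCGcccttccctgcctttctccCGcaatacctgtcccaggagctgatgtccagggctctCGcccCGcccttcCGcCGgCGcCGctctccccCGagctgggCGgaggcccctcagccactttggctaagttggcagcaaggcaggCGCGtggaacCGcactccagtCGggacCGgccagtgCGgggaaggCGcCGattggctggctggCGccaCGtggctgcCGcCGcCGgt

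The Hoxa5 window held 28 CpGs and the Hoxb4 window 14, and those of the silent genes Hoxa13 and Hoxd1 held 35 and 24. RefSeq windows were matched for 22 of the 39 genes, 24 windows in all. The 14 windows of expressed Hox genes held a median of 10 CpGs (3 to 28), and the 8 windows of genes at 0 in every library held a median of 16.5 (2 to 35). The median over all 32851 mouse windows was 6. A dense CpG window was therefore present in genes with and without counts. On either strand, TATAAA occurred in 4 of the 24 Hox windows (12.4% of all windows), TGATNNAT, a core of the joint Pbx and Hox site, in 4 (7.68%), and CCAAT in 14 (33.8%). A match is a description of the letters only.

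Total counts ran from 19650983 to 28860598 per library. The smooth muscle markers had summed normalised counts (counts divided by the DESeq2 size factor of the library) of 912600 to 1072000 in WT, 873700 in KO-1 and 1028000 in KO-2, and Myh11 alone had 232300 to 301100 in WT. Mitochondrial genes took 2.617% to 4.441% of counts in WT, 3.378% in KO-1 and 11.71% in KO-2. Tgfbr1 had normalised counts of 3858, 3999, 4763 and 5420 in the WT libraries and 5780 and 4568 in those labelled KO (DESeq2 adjusted p = 0.63). Tgfbr2 had 5327, 5643, 6948 and 7042 in WT and 5784 and 5937 in KO (DESeq2 adjusted p = 0.838). Counts of a whole gene, read in whole tissue, do not check a deletion of some of its exons in SMCs, so the deletion is not verified by these counts.

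The thoracic aorta carried an anterior to mid-trunk set of Hox transcripts. Of the 39 genes, 24 had a mean normalised count of at least 10 in WT and are called expressed. They included every member of paralogue groups 2 to 8, and Hoxa9, Hoxb9 and Hoxa10 of groups 9 and 10. At the other extreme, 12 genes had 0 counts in all 6 libraries: Hoxb1 and Hoxd1 at the anterior end, and Hoxa11, Hoxa13, Hoxb13, Hoxc10, Hoxc11, Hoxc12, Hoxc13, Hoxd11, Hoxd12 and Hoxd13 at the posterior end. A count of 0 allows up to 3 counts, which is 0.104 to 0.153 per 1000000 counts of a library, and covers counting error only. Paralogue groups 11, 12 and 13, which pattern limb and genital tract, had no count in any of their 9 genes.

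The 3 genes in between were seen in some libraries only. Hoxc9 had counts of 5, 0, 6 and 4 in WT-1 to WT-4, 0 in KO-1 and 5 in KO-2. Hoxd9 had 4, 0, 15 and 0 in WT, 15 in KO-1 and 0 in KO-2. Hoxd10 had 3, 5, 0 and 0 in WT and 0 in both KO libraries. Each was at 0 in at least 1 library of both groups, and no fold change is given for them.

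Levels of different genes were compared as counts per kilobase of merged exon and per 1000000 counts of the library. The highest were Hoxa7 (17.5 ± 3.17, SD, n = 4 WT libraries), Hoxa5 (17.2 ± 4) and Hoxb4 (16.1 ± 3.59), and the lowest expressed gene was Hoxd3 (0.152 ± 0.0653). Hoxa7 lay at the 82.24 percentile of the 13296 protein-coding genes with a WT mean of at least 10, whose median level was 5.152, and 11 Hox genes were above that median. These 11 genes were Hoxa2, Hoxa3, Hoxa4, Hoxa5 and Hoxa7 and Hoxb2, Hoxb3, Hoxb4, Hoxb5, Hoxb6 and Hoxb7, all with paralogue numbers from 2 to 7. No Hoxc or Hoxd gene reached it. Going down the order of levels, only 2 of the 23 neighbouring pairs had WT ranges that did not overlap: Hoxb8 above Hoxc6, and Hoxc4 above Hoxa9. The order within the top 11 is thus not resolved gene by gene, and Hoxb3 shares 52.9% of its exon length with Hoxb3os of the opposite strand, which leaves its own level uncertain.

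**Figure D1:**
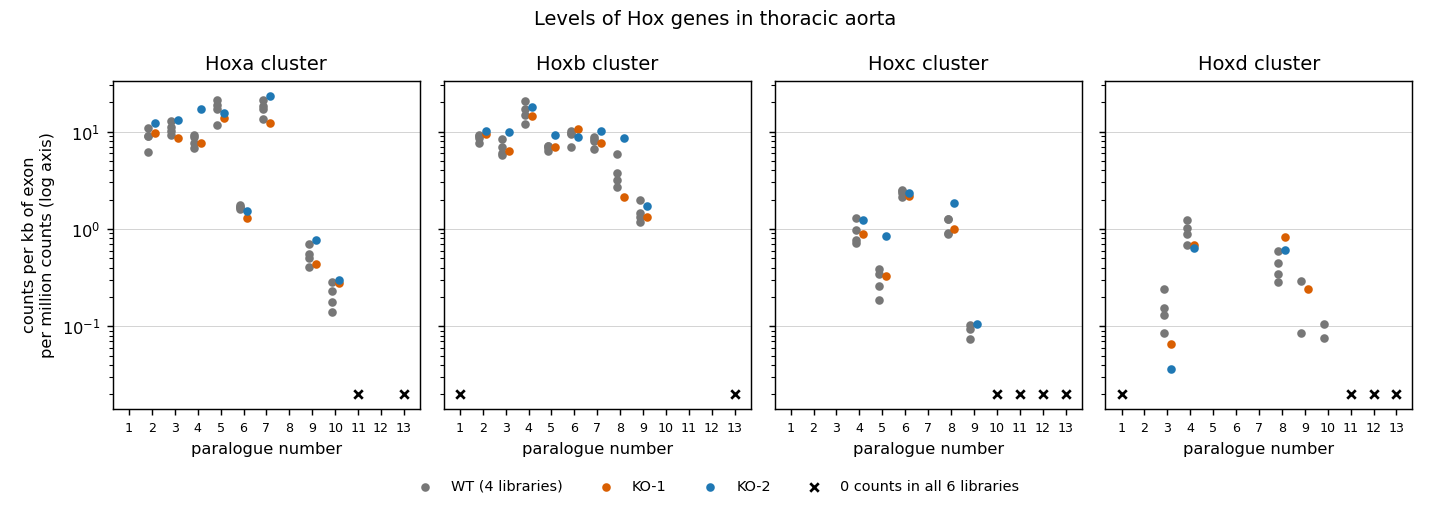
Levels of 38 of the 39 Hox genes, in counts per kilobase of merged exon and per 1000000 counts on a log axis, against paralogue number, with a panel for each cluster and a point for each library. Hoxa7, Hoxa5 and Hoxb4 stand highest, no Hoxc or Hoxd gene comes near the median of 5.152 for protein-coding genes, and crosses at the foot mark the 12 genes with 0 counts in all 6 libraries (single libraries at 0 of the 3 scarce genes are not drawn).

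Taken by cluster, nearly all of the Hox signal per length came from Hoxa and Hoxb. The summed WT level was 67 ± 10.9 for Hoxa and 60.7 ± 6.88 for Hoxb, against 4.74 ± 0.669 for Hoxc and 1.67 ± 0.242 for Hoxd (SD, n = 4). Hoxa held 49.8% of the summed level and Hoxb 45.4%, while Hoxc held 3.55% and Hoxd 1.25%. With the longest annotated transcript as gene length, the Hoxa sum became 89.09 and the Hoxc sum 6.481, and the order of the clusters stayed Hoxa, Hoxb, Hoxc, Hoxd. Genes called expressed reached paralogue 10 in Hoxa, 9 in Hoxb and 8 in Hoxc and Hoxd.

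Taken by paralogue group, groups 4 to 8 held 70.3% of the summed level in WT, groups 1 to 3 held 27.8% and groups 9 to 13 held 1.84%. Group 4 held 19.4%, group 7 held 19%, group 5 held 18.1%, group 3 held 13.4%, group 2 held 12.9% and group 6 held 9.79%. These shares use merged exon length. Over the longest transcript the WT level of Hoxa3 rose from 10.9 to 25.25 and that of Hoxa7 from 17.5 to 24.78. Those of Hoxa5 and Hoxb4 stayed at 17.2 and 16.1, so the order of the groups depends on the length used. The step down after group 7 was steep: group 8 held 4.06%, group 9 held 1.65% and group 10 held 0.195%.

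The members with the highest levels were described in every library by their normalised counts. Hoxa7 (ENSMUSG00000038236.8, chromosome 6, 52214491 to 52221854), a gene of the thoracic part of the axis, had 1463, 1210, 1174 and 910.5 in WT-1 to WT-4, 775.5 in KO-1 and 1614 in KO-2. KO-1 was below all WT libraries and KO-2 above them all. The DESeq2 log2 fold change, KO against WT, was 0.0046 (SE 0.29, 95% interval -0.565 to 0.574, adjusted p = 0.995). Hoxa5 (ENSMUSG00000038253.6, chromosome 6, 52201754 to 52204587) had 955.6, 812.7, 767.9 and 516.9 in WT and 563 and 696.9 in KO. Both KO libraries lay inside the WT range (log2 fold change -0.28, SE 0.26, DESeq2 adjusted p = 0.588). Hoxb4 (ENSMUSG00000038692.8, chromosome 11, 96318267 to 96321638) had 1264, 1014, 905.7 and 724.6 in WT and 809.6 and 1119 in KO, again inside the WT range (log2 fold change -0.021, SE 0.25, DESeq2 adjusted p = 0.976).

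Hoxa3, which patterns derivatives of the third pharyngeal arch including the carotid artery and thymus, had 1456, 1568, 1862 and 1295 in WT, 1132 in KO-1 and 1903 in KO-2. The KO libraries fell on either side of the WT range (log2 fold change -0.028, SE 0.24, DESeq2 adjusted p = 0.965). Its level depended on the length used, 10.9 ± 1.6 over merged exons against 25.25 over the longest transcript, where it was the highest Hox gene. Hoxb6, a gene of the trunk, had 452.5, 432.9, 479.3 and 318.5 in WT and 456.8 and 419.1 in KO, inside the WT range (log2 fold change 0.058, SE 0.24, DESeq2 adjusted p = 0.924). Hoxa2, the selector gene of the second pharyngeal arch, had 458, 372.7, 384.5 and 253.7 in WT and 375.6 and 526.1 in KO. KO-1 was inside the WT range and KO-2 above it (log2 fold change 0.29, SE 0.28, DESeq2 adjusted p = 0.599).

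The most posterior expressed gene of each cluster marks the last one to reach a WT mean of at least 10. Beyond it, Hoxc9, Hoxd9 and Hoxd10 still had counts in some libraries. Hoxa10, known for its role in the uterus and lumbar axis, had normalised counts of 10.98, 13.47, 17.97 and 21.93 in WT and 19.73 and 23.35 in KO (log2 fold change 0.42, SE 0.69, DESeq2 adjusted p = 0.797). Hoxb9 had 72.5, 79.93, 120.8 and 87.71 in WT and 74.36 and 108.2 in KO (log2 fold change 0.0083, SE 0.38, DESeq2 adjusted p = 0.993). Both had KO libraries within or close to the WT range. Hoxc8, a gene of the thoracic axis, had 85.68, 58.37, 85.88 and 59.52 in WT, 62.22 in KO-1 and 127.8 in KO-2 (log2 fold change 0.38, SE 0.43, DESeq2 adjusted p = 0.668). Hoxd8 had 29.66, 17.96, 38.95 and 21.93 in WT and 50.08 and 40.56 in KO. Both KO libraries of Hoxd8 were above all WT libraries, the only expressed Hox gene for which this held, but the change did not pass the test (log2 fold change 0.75, SE 0.55, 95% interval -0.335 to 1.83, DESeq2 adjusted p = 0.462).

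To ask whether disruption of TGF-β receptors in SMCs was accompanied by a shift in the Hox code, each gene was compared between KO and WT. None of the 25 Hox genes that received an adjusted p differed between the groups (DESeq2, adjusted p under 0.05), where 10.4% of all 17070 tested genes did (5.71% higher and 4.69% lower, and 5.64% also past a 2-fold change). The smallest adjusted p was 0.279 (Hoxa4). At an unadjusted p under 0.05, DESeq2 gave 0 Hox genes against 22.2% of all genes. The edgeR quasi-likelihood test also called 0 of 25, against 6.18% of all genes. Hoxd3 was the 1 Hox gene with an unadjusted p under 0.05 in edgeR (edgeR adjusted p = 0.176).

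The sizes of change were bounded unevenly. Of the 24 expressed genes, 17 had a log2 fold change above 0 and 7 below 0, with a median of 0.14, beside a median of -0.0041 over all 15353 genes with the same minimum count. The median turned on the KO library used, at 0.42 without KO-1 and -0.20 without KO-2. The median size without sign was 0.26, beside 0.31 over all genes. The 95% interval lay within a 2-fold change both ways for 13 genes, so that larger changes lay outside it, and reached 2-fold or more for the other 11. Those 11 included the scarcely expressed Hoxd3, Hoxc5, Hoxd8, Hoxd4 and Hoxa10, for which a change of 2-fold is not excluded. The intervals use the DESeq2 SE with only 2 KO libraries. On simulated data of this design DESeq2 made more false calls than its nominal rate, so the intervals may be too narrow.

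**Figure D2:**
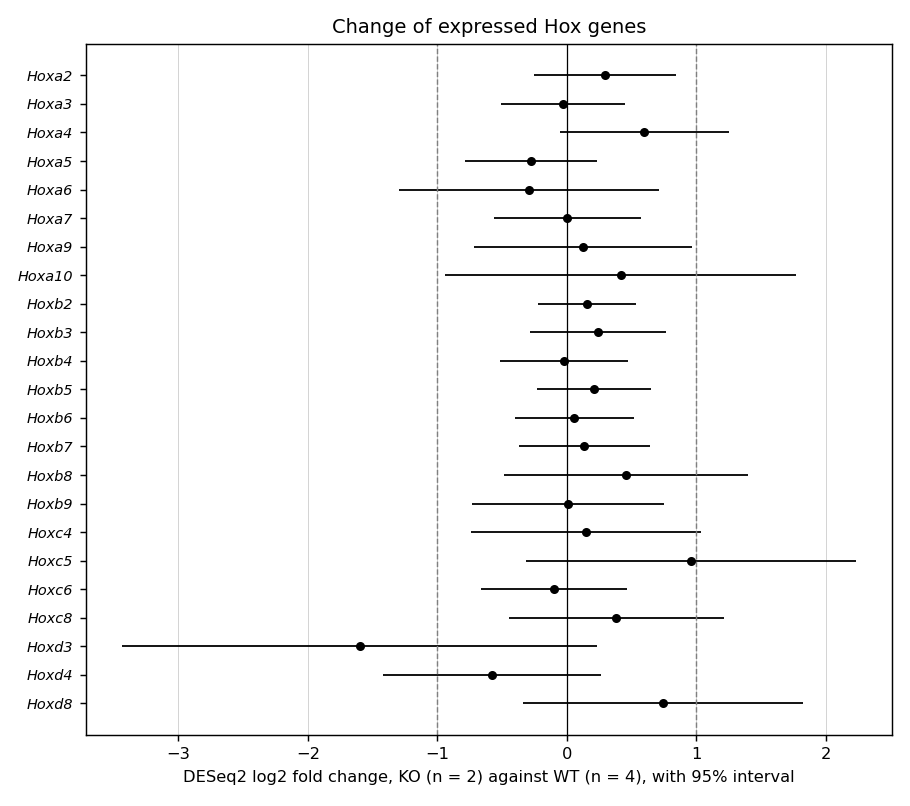
DESeq2 log2 fold change of 23 of the 24 expressed Hox genes, KO (n = 2) against WT (n = 4), with 95% intervals as bars and dashed lines at a 2-fold change each way. All 23 intervals include 0, 13 lie between the dashed lines, and the widest belongs to Hoxd3.

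By overlap of libraries, 20 of the 24 expressed genes had groups that overlapped. Among all genes with a WT mean of at least 10, 35.0% had groups that did not overlap, 17.5% in each direction. The 4 Hox genes without overlap were Hoxd8, higher in KO, and Hoxa6, Hoxd3 and Hoxd4, lower in KO. Hoxd3 had normalised counts of 15.38, 23.35, 12.98 and 8.353 in WT and 6.07 and 3.687 in KO. Its log2 fold change was -1.60 (SE 0.94, 95% interval -3.43 to 0.24, DESeq2 adjusted p = 0.316). Hoxd4 had 71.4, 85.31, 47.93 and 61.6 in WT and 44.01 and 45.48 in KO, with a log2 fold change of -0.58 (SE 0.43, DESeq2 adjusted p = 0.467). Hoxa6 had 35.15, 34.13, 36.95 and 32.37 in WT and 25.04 and 31.96 in KO, a gap of less than 1 count between WT-4 and KO-2 (log2 fold change -0.29, SE 0.51, DESeq2 adjusted p = 0.811). Hoxd3 and Hoxd4 share exons with each other and with the readthrough gene Gm28230 over 62.3% and 52.3% of their length, so the split of reads between them is uncertain. These 3 genes and Hoxa4, Hoxb8 and Hoxc5 were chosen after their values were seen.

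The makeup of the Hox signal by cluster and paralogue group was set side by side, without a test. Hoxa held 46.57% and 50.59% of the summed level in KO-1 and KO-2, Hoxb 48.31% and 44.91%, and Hoxc 3.623% and 3.741%, beside WT means of 49.8%, 45.4% and 3.55%. Hoxd held 1.5% in KO-1 and 0.754% in KO-2, beside 1.25% ± 0.0702 (SD, n = 4) in WT. The KO libraries thus lay on opposite sides of the WT mean for Hoxd. Paralogue groups 1 to 3 held 30.17% and 28.27%, groups 4 to 8 held 67.96% and 70.02%, and groups 9 to 13 held 1.874% and 1.702%.

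In most expressed Hox genes, the pair of KO libraries differed from each other in the same direction. KO-2 had the higher normalised count in 21 of the 24 expressed genes (87.5%), beside 46.53% of all genes with the same minimum, and the exceptions were Hoxb6, Hoxd3 and Hoxd8. The median log2 ratio of KO-2 over KO-1 was 0.51, beside -0.04 over all genes. A shift of nearly that size also separated WT libraries: among the 6 pairs of WT libraries the median log2 ratio had a size between 0.0374 and 0.502, and WT-4 was the lowest WT library in 17 of the 24 genes. KO-2 lay above all WT libraries in 15 genes (31.49% of all genes did) and KO-1 below all WT libraries in 7 (28.86% of all genes did). In 3 genes, which were Hoxa3, Hoxa7 and Hoxb8, KO-1 was below and KO-2 above every WT library. The shares of all genes with this pattern, or with WT-4 as the lowest WT library, were not computed. Neither count is therefore read as particular to Hox genes.

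**Figure D3:**
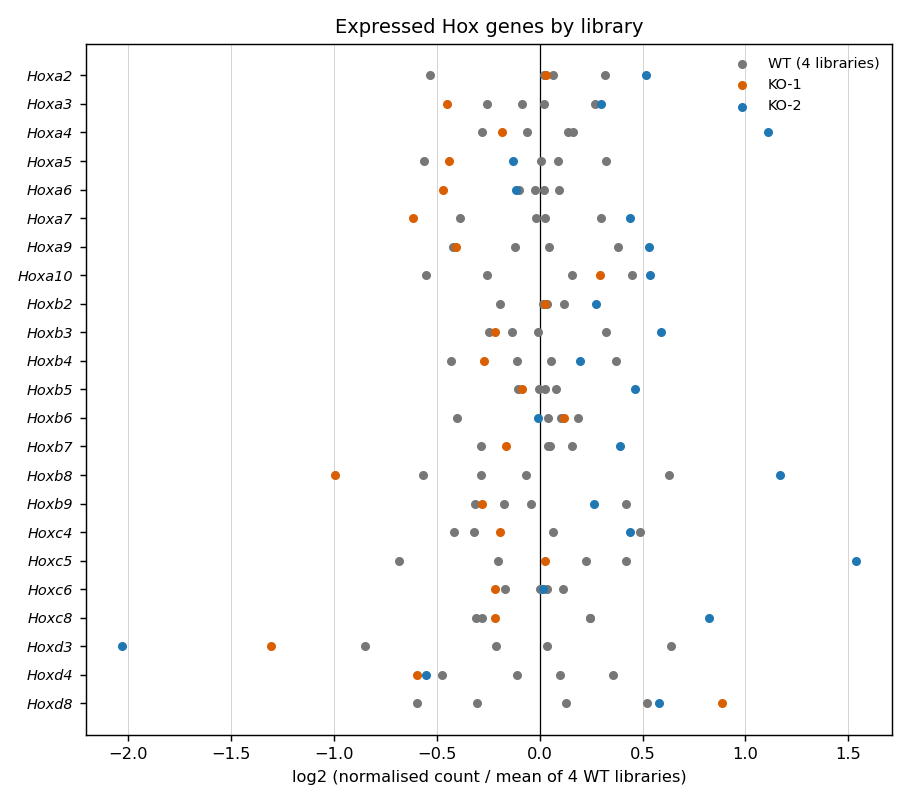
Log2 ratio of the normalised count of each library to the mean of the 4 WT libraries, for 23 of the 24 expressed Hox genes, with WT libraries in grey, KO-1 in orange and KO-2 in blue. KO-2 lies to the right of KO-1 in 20 of them, with the widest gap in Hoxb8, and Hoxd3 is the gene in which both KO libraries lie farthest to the left.

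Hoxb8, a gene of the trunk that is also active in myeloid progenitors, differed most between the KO libraries. Its normalised counts were 198.8, 163.4, 374.5 and 230.8 in WT, 121.4 in KO-1 and 543.3 in KO-2. KO-2 was 4.475 times KO-1, while the highest WT library was 2.291 times the lowest. The log2 fold change was 0.45 with all libraries (SE 0.48, DESeq2 adjusted p = 0.647), 1.17 without KO-1 (DESeq2 adjusted p = 0.0595) and -0.98 without KO-2 (DESeq2 adjusted p = 0.239), so its direction rested on which KO library was kept. Hoxa4, a gene of the neck region, had 292.2, 340.4, 334.5 and 250.6 in WT, 268.6 in KO-1 and 657.6 in KO-2. With all libraries Hoxa4 had a log2 fold change of 0.60 (SE 0.33, 95% interval -0.0536 to 1.25, DESeq2 adjusted p = 0.279), and it was -0.17 without KO-2 (DESeq2 adjusted p = 0.825). Without KO-1 it was 1.11 (DESeq2 adjusted p = 0.00109), the only Hox call in any of the 11 alternative fits, where 15.9% of all genes were called; without KO-2, 0 Hox genes and 7.02% of all genes were. That call compares a single KO library with WT and takes its spread from the WT libraries. Hoxc5 showed the same arrangement with fewer counts, 25.26, 13.47, 28.96 and 18.79 in WT, 22 in KO-1 and 62.69 in KO-2 (log2 fold change 0.96, SE 0.65, DESeq2 adjusted p = 0.413).

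By cluster, the summed normalised count of Hoxa was 4404 ± 681.4 in WT (SD, n = 4), 3344 in KO-1 and 5705 in KO-2. For Hoxb it was 3856 ± 459.4, 3449 and 5067, and for Hoxc 288.9 ± 46.79, 249.6 and 409.3. Hoxd went the other way, at 115.5 ± 17.09, 111.5 and 89.73. In 3 of the 4 clusters KO-2 was therefore above KO-1, and all Hox genes together took 297.5 to 397 of every 1000000 counts in WT, 326.7 in KO-1 and 466.6 in KO-2.

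The same libraries also differed in what other tissue they held. Cardiac muscle markers (10 genes, of which Actc1, Tnni3 and Tnnt2 were higher in KO by DESeq2 and edgeR, and Myl7 and Ttn by DESeq2 only) summed to 3112 to 4544 normalised counts in WT, 33140 in KO-1 and 4258 in KO-2. Myl7 and Ttn were high in KO-1 only, with KO-2 inside the WT range. Actc1 (74.54 to 223.4 in WT, 5951 in KO-1 and 270.4 in KO-2) and Tnni3 (94.29 to 203.2, 1251 and 264.3) were also far higher in KO-1. The calls of Actc1, Myl7, Tnni3 and Ttn were lost without KO-1. Ryr2 of the same list had 2291 to 2667 in WT, 3100 in KO-1 and 1368 in KO-2, and was not called. Brown adipocyte markers (8 genes, of which Cox7a1, Cox8b, Dio2, Ppargc1a and Slc36a2 were higher by both tests and Cidea by DESeq2 only) summed to 1277 to 1686 in WT, 4293 in KO-1 and 15710 in KO-2, and white adipocyte markers (8 genes, of which Cfd and Lpl were higher by both tests and Fabp4 and Plin1 by DESeq2 only) to 4783 to 8544, 10080 and 52610. By these sums KO-1 was above every WT library in heart muscle and fat markers, and KO-2 in fat markers. The KO-2 cardiac sum lay inside the WT range, but it included a Ryr2 count below all WT libraries. Tnnt2 was above all WT libraries in both KO libraries (376.3 to 848.8 in WT, 4445 in KO-1 and 1975 in KO-2). Mesothelial markers (8 genes, of which Krt19, Msln and Upk3b were higher by both tests and Lrrn4, Upk1b and Wt1 by DESeq2 only) summed to 697.8 to 908.7, 1515 and 3011. Fibroblast markers (8 genes, of which Cd34 and Lum were higher by both tests and Dpt by DESeq2 only) summed to 115000 to 127300, 146600 and 169300. Macrophage markers (8 genes, 7 higher by DESeq2, of which Adgre1, C1qa and Mrc1 also by edgeR) summed to 8955 to 10830, 15520 and 17790. Endothelial markers (8 genes, of which Cdh5, Kdr and Vwf were higher by both tests and Tie1 by DESeq2 only) summed to 13070 to 23550, 32490 and 31880. Erg, an endothelial transcription factor of the same list, had 1462, 1489, 1965 and 1686 in WT and 913.6 and 1310 in KO, with both KO libraries below all WT libraries and no call (DESeq2 adjusted p = 0.0719). Over the 12 cell type lists DESeq2 called 37 of 87 tested genes, where it called 10.4% of all genes, and edgeR called 22 of 83, where it called 6.18%. Of the 37, 10 were not called without KO-1 and 18 were not called without KO-2. The order of KO-2 above KO-1 was shared by the Hoxa, Hoxb and Hoxc sums, the fat, mesothelial, fibroblast, macrophage, smooth muscle and lymphocyte sums and the mitochondrial share. The Hoxd sum and the cardiac muscle, endothelial, skeletal muscle, Schwann cell and neuron sums had the other order. The part of these tissues in the Hox values was not tested, and in whole tissue more cells of a type and more RNA per cell cannot be told apart.

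No gene of the smooth muscle (9 genes), lymphocyte (7), skeletal muscle (8) or Schwann cell (7) lists was called in either direction by DESeq2 or edgeR. Lymphocyte markers summed to 17.75 to 69.2 in WT, 89.54 in KO-1 and 308.5 in KO-2, skeletal muscle markers to 158.7 to 224.1, 661.7 and 191.7, and Schwann cell markers to 455.8 to 663.6, 856.7 and 778.1. The 8 neuron markers summed to 1428 to 1777 in WT, 1066 in KO-1 and 780.5 in KO-2, and of these Stmn2 was higher (log2 fold change 0.89, DESeq2 adjusted p = 0.0284, edgeR adjusted p = 0.0601) and Uchl1 lower (log2 fold change -1.10, DESeq2 adjusted p = 0.000301, edgeR adjusted p = 0.0389). Uchl1 alone had 1267 to 1636 in WT, 838.5 in KO-1 and 472 in KO-2, so it carried most of the neuron sum and its fall. Stmn2 had 113.8 to 152.7, 207.9 and 282.7. The defining genes of sympathetic neurons, Th, Dbh and Phox2a among them, were at or near 0 in both groups.

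**Figure D4:**
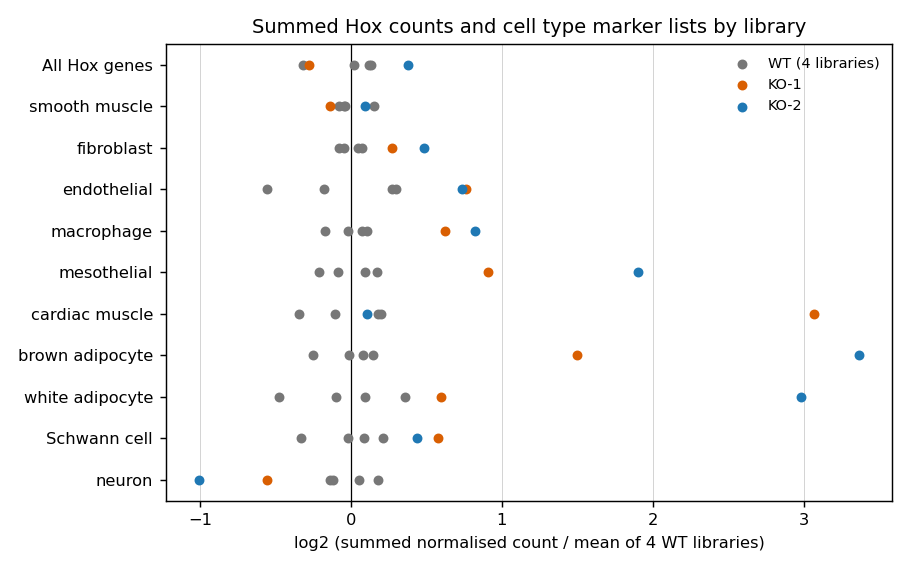
Log2 ratio to the mean of the 4 WT libraries of the summed normalised count of all Hox genes and of 10 cell type marker lists, with WT libraries in grey, KO-1 in orange and KO-2 in blue. The Hox sum differs between KO-1 and KO-2 by less than the cardiac muscle, brown adipocyte and white adipocyte sums do.

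Hox proteins bind DNA with TALE cofactors, and the median log2 fold change over the 9 cofactor genes was 0.018. Meis2, picked after its values were seen, had 1089, 1018, 1479 and 1254 in WT and 1571 and 2110 in KO and did not pass the test (log2 fold change 0.60, DESeq2 adjusted p = 0.0547). The 3 Cdx genes, which activate Hox genes in the embryo, had 0 counts in all libraries.

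Of 22 Polycomb and trithorax genes, whose products keep Hox genes off or on through histone marks, none was called by DESeq2 or edgeR, with a median log2 fold change of -0.097. Of 13 genes beside the clusters that were in the table, 9 were tested and none was called, with a median of 0.17. Among 17 noncoding RNAs within the clusters, 6 had 0 counts in all libraries, 5 were tested and 1 was lower (4.69% of all genes). It was Hotairm1, a long noncoding RNA at the anterior end of the Hoxa cluster, with normalised counts of 369.1, 280.2, 181.7 and 204.7 in WT and 144.2 and 122.9 in KO. Both KO libraries were below all WT libraries (log2 fold change -0.95, DESeq2 adjusted p = 0.0443), but the call held in only 3 of 11 alternative fits (edgeR adjusted p = 0.11, range over all 11 alternatives 0.0194 to 0.298).

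Retinoic acid is the classic inducer of anterior Hox genes, and of 16 genes of its pathway 14 were tested, 3 being higher and 1 lower, where DESeq2 called 5.71% of all genes higher and 4.69% lower. Aldh1a2, which makes retinoic acid and is strongly expressed in mesothelium, had 43.94, 56.58, 78.89 and 44.9 in WT and 189.7 and 324.5 in KO (log2 fold change 2.19, DESeq2 adjusted p = 6.83e-07, edgeR adjusted p = 0.0114) and was called in all 11 alternative fits. Aldh1a1, another enzyme of that step, had 511.9, 489.4, 494.3 and 714.2 in WT and 1065 and 891.1 in KO (log2 fold change 0.83, DESeq2 adjusted p = 0.00576, edgeR adjusted p = 0.0493). It was lost without KO-1 (log2 fold change 0.69) and with a replicate block (DESeq2 adjusted p = 0.0907). The mesothelial markers were also higher in KO and highest in KO-2, as Aldh1a2 was, and their part in it was not tested. Rxrg, a retinoid receptor, was called by DESeq2 only (adjusted p = 0.021, edgeR adjusted p = 0.101), at 5.492, 9.878, 0 and 19.84 in WT and 51.6 and 72.52 in KO, and 7 of the 11 alternative fits lost the call, including those without either KO library. Crabp2, a retinoic acid carrier, had 40.64, 13.47, 6.99 and 4.177 in WT and 0 in both KO libraries (DESeq2 adjusted p = 0.00653, edgeR adjusted p = 0.0885), and 6 of the 11 alternative fits lost it. The retinoic acid receptors Rara, Rarb and Rarg did not pass the test (DESeq2 adjusted p = 0.845, 0.822 and 0.698).

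Other factors that pattern the heart, arch arteries and great vessels numbered 25, of which 21 were tested, 4 were higher and 1 was lower (5.71% and 4.69% of all genes). Tbx5, a factor of the atria and left ventricle, had 8.787, 8.98, 13.98 and 9.397 in WT, 121.4 in KO-1 and 36.87 in KO-2 (log2 fold change 2.95, DESeq2 adjusted p = 0.000213, edgeR adjusted p = 0.02). Tbx5 was highest in the library with the most cardiac muscle RNA, and KO-2 was also above all WT libraries. The part of heart tissue in these values was not tested. The call was lost without KO-1 (log2 fold change 1.84). Gata4 had 35.15, 26.04, 70.9 and 25.06 in WT and 124.4 and 189.3 in KO (log2 fold change 1.99, DESeq2 adjusted p = 0.00128, edgeR adjusted p = 0.0417), and was lost without KO-2 (DESeq2 adjusted p = 0.143). Gata6, which regulates SMC genes, had 2119, 2151, 2661 and 2197 in WT and 3456 and 3797 in KO (log2 fold change 0.67, DESeq2 adjusted p = 0.0027, edgeR adjusted p = 0.032) and was called without either KO library. The other calls did not pass in edgeR: Tbx20 was higher (log2 fold change 0.82, DESeq2 adjusted p = 0.00967, edgeR adjusted p = 0.0546) and Tbx18 lower (log2 fold change -0.46, DESeq2 adjusted p = 0.0315, edgeR adjusted p = 0.052). Of the 11 alternative fits, 5 lost Tbx20 and 7 lost Tbx18. Both were lost without KO-1 and without WT-2 (DESeq2 adjusted p = 0.0527 and 0.0532). Tbx18 was also lost without WT-3 (DESeq2 adjusted p = 0.0504) and with total-count scaling (DESeq2 adjusted p = 0.0859). A replicate block lost Tbx20, Tbx18, Tbx5 and Gata6 (DESeq2 adjusted p = 0.0756, 0.585, 0.129 and 0.104).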

How the data were processed

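Bulk RNA sequencing of 6 thoracic aortas was used. Per the study's methods, the authors trimmed reads with Trim Galore, aligned them to GRCm38 with HISAT2 and quantified GENCODE M15 genes with StringTie, and what they deposited is an estimated count per gene, unscaled and already a whole number. How coverage became counts and whether strand was used is not given in the sources used here. Of the 39 Hox genes, 16 overlap exons of another gene (10 on the opposite strand), so their reads may be shared. Columns carry codes rather than sample titles: the group of each code was taken as given with the gene set's definition, and the replicate number from the last digit of the code. No other sample columns were present.

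Positions and exon lengths came from GENCODE M21 on the same build (52489 of 52636 gene identifiers matched, 147 did not). DESeq2 1.42.0 (R 4.3.3; Wald test, Benjamini-Hochberg adjustment over all genes, threshold 0.05) compared KO with WT on all 6 libraries, following the study. Intervals are 1.96 SE. The edgeR 4.0.16 quasi-likelihood test is given beside calls, by adjusted p or as called or not, since on simulated data of this design DESeq2 made more false calls than its nominal rate and edgeR made fewer than DESeq2. Log ratios between libraries used a pseudocount of 0.5. Alternatives were edgeR with and without a filter, TMM or total-count scaling, a replicate block and leaving out each library. Values in every library are given for Hox genes called, for the 6 with the highest level and for the most posterior expressed gene of each cluster and up to 6 called genes are named from each of 19 gene lists; some items are not reported here or drawn, though counts, sums and medians include them. Members and lists were chosen with earlier results of these data known.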

Additional observations from a re-analysis of the deposited data

Results flagged for a closer look

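Among 50 values checked for a WT library standing apart from the other 3 WT libraries, 2 were found, where chance alone gives about 2.5. The summed level of paralogues 9 to 13, in counts per kilobase and per 1000000 counts, was 3.282 in WT-3, beside 2.12, 2.13 and 2.23 in the others, and Hoxb9 was also highest in that library among WT (normalised count 120.8). The summed normalised count of the smooth muscle markers was 1072000 in WT-3, beside 912600 to 937700 in the others. Both stand on the high side, in the same library.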

How the results depend on the processing

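Over the 11 alternative fits, 0 Hox genes were called except without KO-1, where 1 was (Hoxa4), so leaving out a library gave 0 to 1. The median log2 fold change of the expressed Hox genes was 0.14 and ran from -0.20 without KO-2 to 0.42 without KO-1. The 1775 genes called in the whole table became 996 and 931 with edgeR with and without a filter, 628 with a replicate block, 962 above 2-fold, and 1113 (without KO-2) to 2439 (without KO-1) when a library was left out. TMM and total-count scaling shifted the median of all genes by 0.0029 and 0.04. Calls in the lists around the Hox genes fell from 11 to 6 and 5 with edgeR with and without a filter and to 2 with the block, and were 7 (without WT-2) to 13 (without WT-3) when a library was left out. Calls in the cell type lists fell from 37 to 22 with filtered edgeR and were 26 to 34 when a library was left out. These list alternatives were added after seeing the data.

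For the 16 Hox genes with a fold change given, 154 of 176 alternatives kept the sign and the side of the threshold, 21 turned the sign and 1 gained a call. Sign turned in edgeR for Hoxa7 (-0.014) and Hoxb9 (-0.0070), with total counts for Hoxb4 (0.0092), and with the replicate block for Hoxa7 (-0.25) and Hoxb6 (-0.016). Leaving out a library turned Hoxa7 (-0.61 to 0.44 over the 6 fits), Hoxb9 (-0.27 to 0.26), Hoxb4 (-0.26 to 0.20), Hoxa3 (-0.44 to 0.30), Hoxb6 (-0.050 to 0.13), Hoxc8 (-0.20 to 0.82), Hoxa4 (-0.17 to 1.11) and Hoxb8 (-0.98 to 1.17), with the lowest value without KO-2 and the highest without KO-1 for all but Hoxb6, where they came without WT-4 and KO-2. The cause was not tested. With longest-transcript lengths the WT sum of Hoxa was 89.09 in place of 66.98 and that of Hoxc 6.481 in place of 4.737. A minimum mean of 5 or of 50 gave 24 and 19 expressed Hox genes. Replicate numbers 1 and 2 occur in both groups, and the labels give them only as names. The deviations of same-numbered libraries correlated at -0.087 and 0.014. With 2 KO libraries, their deviations from the KO mean mirror each other, so these correlations cannot show whether a number marks a shared batch. Under the block 0 Hox genes were called, as in the fit without it. The block compares the groups only within numbers 1 and 2, so it has little power to call a gene.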
